A study of Mus musculus with 18 samples.

Results

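Kidney, liver and brain RNA of the mouse strains DBA/2J and C57BL/6J was compared for 8 enzyme genes of linked metabolism, namely the 2-hydroxyacid oxidases Hao1 and Hao2, the acyl-CoA synthetases Acsm1, Acsm2, Acsm3 and Acsm5, and the Nudix hydrolases Nudt7 and Nudt19. The genes were chosen with the kidney ratios of some of them in view, and a spot belonged to a gene when the platform annotation gave that gene symbol. Of the 8 genes, 6 had a spot, 1 each, among 15095 named genes in all. Acsm2 and Acsm5 had no spot of that name among those annotated and were not analysed here. The kidney ratios of the 6 genes are therefore a description without a test, while the brain and liver ratios were tested. Earlier results of these data were known when genes and lists were chosen, so those tests are not free of that choice.

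The 18 glass oligonucleotide arrays comprised 6 per tissue. Each of them took pooled whole-tissue RNA of DBA/2J carrying Alexa Fluor 647 together with pooled RNA of C57BL/6J carrying Alexa Fluor 555. A pool held 10 mice in the case of brain or kidney and 9 in that of liver, no dye was swapped, and the labels give neither age nor sex. All arrays of a tissue shared 1 pair of pools, so p-values measure the spread between hybridisations, not between mice, and a constant dye effect on a spot and a strain difference cannot be told apart.

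2-Hydroxyacid oxidases are flavin enzymes of the peroxisome that turn 2-hydroxyacids into 2-oxoacids and release hydrogen peroxide. Acsm enzymes are mitochondrial and join medium-chain fatty acids or aromatic acids to coenzyme A (CoA), which prepares them for oxidation or for conjugation with glycine, a main task of liver and of the renal proximal tubule. Nudt7 and Nudt19 are peroxisomal hydrolases that split CoA and acyl-CoA and so lower the CoA pool, Nudt7 being known from liver and Nudt19 from kidney.

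The 250 bases before the annotated start of the 4 genes with the widest kidney ratios are shown because these genes went in opposite directions in the same organ. They are RefSeq sequences of GRCm38.p6, the C57BL/6J reference, written 5′ to 3′ along the gene, at chr3:98893231-98893480 (minus strand) for Hao2, chr7:119617562-119617811 (plus strand) for Acsm1, chr7:119760673-119760922 (plus strand) for Acsm3 and chr7:35555929-35556178 (minus strand) for Nudt19. Capitals mark GTTAA on either strand, a part of the site bound by HNF1, a transcription factor of renal tubule and liver.
Hao2: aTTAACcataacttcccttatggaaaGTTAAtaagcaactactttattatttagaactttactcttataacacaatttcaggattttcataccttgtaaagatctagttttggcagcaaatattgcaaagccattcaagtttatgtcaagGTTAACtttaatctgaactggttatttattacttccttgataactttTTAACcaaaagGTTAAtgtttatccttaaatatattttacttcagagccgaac
Acsm1: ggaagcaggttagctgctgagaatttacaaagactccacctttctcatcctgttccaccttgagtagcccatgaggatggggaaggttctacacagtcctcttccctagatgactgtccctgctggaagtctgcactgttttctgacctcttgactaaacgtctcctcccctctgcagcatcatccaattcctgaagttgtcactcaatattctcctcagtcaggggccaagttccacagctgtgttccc
Acsm3: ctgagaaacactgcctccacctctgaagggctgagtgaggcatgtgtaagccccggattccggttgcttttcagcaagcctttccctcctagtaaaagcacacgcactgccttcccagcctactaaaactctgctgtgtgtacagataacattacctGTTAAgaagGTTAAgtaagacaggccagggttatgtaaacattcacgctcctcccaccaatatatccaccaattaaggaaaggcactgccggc
Nudt19: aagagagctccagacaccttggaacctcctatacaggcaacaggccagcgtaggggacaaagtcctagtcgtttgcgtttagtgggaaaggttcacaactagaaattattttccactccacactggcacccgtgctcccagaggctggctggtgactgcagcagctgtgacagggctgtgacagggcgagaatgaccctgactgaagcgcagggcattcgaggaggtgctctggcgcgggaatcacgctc
The letters GTTAA were matched 6 times before Hao2, where 1 run of GTTAAC counts on both strands and its matches overlap. Acsm3 had 2 matches, and Acsm1 and Nudt19 had 0 in these windows, as had Hao1 and Nudt7. Of 32851 RefSeq windows of the same length, 21.7% held at least 1 match and 11 windows other than that of Hao2 held as many. The Hao2 window has a GC content of 28.4%, and 341 other windows were as low, of which 0 held as many matches. The motif was chosen after the sequences were seen, and a match is a description of letters, not of a bound site. The window says nothing of the DBA/2J allele, whose sequence was not used here.

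Values below are log2 ratios of DBA/2J over C57BL/6J after print-tip loess, so a positive value means more RNA in DBA/2J. The labels name the dyes but not which channel was divided by which, and the order was taken as limma's usual one, so the direction is likely, not certain. It is the direction in which Glo1 (glyoxalase), present in an extra copy in DBA/2J, stood at 0.84 ± 0.34 in kidney and 0.91 ± 0.15 in liver (SD, n = 6 arrays), and Hc (complement C5), which DBA/2J lacks as a working gene, at -1.08 ± 0.49 in liver. As deposited, array medians ran from -1.65 to 0.16, and in kidney the ratio rose with spot intensity (correlation across features up to 0.720). Of markers fixed for each organ, the spot was brightest in its own organ for 8 of 10 of proximal tubule, 6 of 9 of other nephron segments, 9 of 9 of hepatocytes, 7 of 8 of neurons and 7 of 7 of glia. Slc34a1, a phosphate transporter of the proximal tubule, was at intensity percentile 95.3 in kidney and 33.0 in liver, whereas the tubule transporters Slc5a2 and Slc22a6 were at 98.7 and 98.9 in kidney and as bright in the other organs. The neuronal Camk2a was dim throughout, at percentile 4.397 in brain, as was the podocyte gene Podxl, at 0.0791 in kidney. Spot intensity, which rests on an estimated factor common to both channels, thus marks the organ for most but not all of these spots.

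The 6 spots differed in where they were bright. The Hao2 spot reached intensity percentile 94.1 in kidney, 89.6 in liver and 32.6 in brain, and the Acsm1 spot 78.8, 85.0 and 2.08. The Acsm3 spot stood at 95.9 in kidney, 70.5 in liver and 21.1 in brain, and the Nudt19 spot at 99.1, 64.1 and 64.02. These 4 spots lay above percentile 75 in kidney, though Acsm1 stood lower there than in liver. The Hao1 spot was not, at percentile 0.341 in kidney and 0.0692 in brain against 64.5 in liver, so that its kidney and brain ratios come from signal near the bottom of the array. The Nudt7 spot was at 43.0 in kidney and 92.9 in liver. By spot intensity, the label of kidney enzymes goes against Hao1 and Nudt7, which were dimmer in kidney than in liver, and Acsm1 was no brighter in kidney than in liver.

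**Figure D1:**
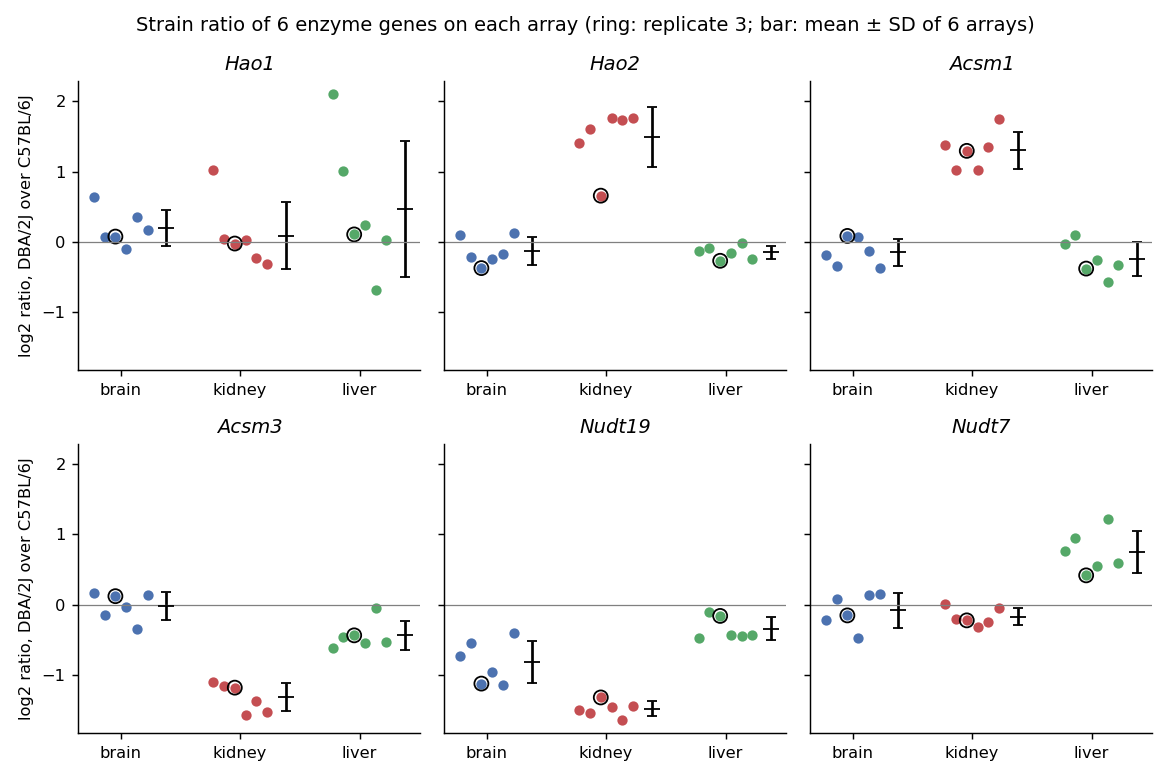
Log2 ratio of DBA/2J over C57BL/6J for the 6 genes on each of the 18 arrays, by tissue; a ring marks replicate 3, and the bar is the mean ± SD of 6 arrays. Hao2 and Acsm1 lie above 0 and Acsm3 and Nudt19 below 0 on all 6 kidney arrays, and Hao2 replicate 3, at 0.66, lies apart from the other 5 kidney arrays.

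In kidney, Hao2, the long-chain 2-hydroxyacid oxidase (Entrez gene 56185, chromosome 3), was higher in DBA/2J. Its log2 ratios on replicates 1 to 6 were 1.41, 1.61, 0.66, 1.76, 1.73 and 1.77, a mean of 1.49 ± 0.43 (SD, n = 6) or 2.81-fold. Replicate 3 was the low array and the other 5 lay close together. In the same order the deposited log2 ratios were 1.48, 1.72, 1.13, 2.18, 2.68 and 1.55, positive throughout with no normalisation. With each array centred on its median and no loess, the mean was 2.27.

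Hao1, glycolate oxidase (Entrez gene 15112, chromosome 2), gave kidney ratios of 1.02, 0.05, -0.02, 0.03, -0.23 and -0.31, a mean of 0.09 ± 0.48. Replicate 1 alone lay far above 0, on a spot that is dim in kidney. Without that array the mean was -0.10. The mean moved with the normalisation too, to 0.63 with a single loess curve for each array, 0.46 with unrestored intensity and -0.31 as deposited.

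Acsm1 (Entrez gene 117147, chromosome 7), which also activates lipoate, was higher in DBA/2J kidney, with ratios of 1.38, 1.03, 1.29, 1.02, 1.34 and 1.74. The mean was 1.30 ± 0.27 (SD, n = 6), or 2.46-fold, and no array stood apart. Acsm3 (Entrez gene 20216, chromosome 7), first described as the SA gene of hypertensive rats, went the other way. Its kidney ratios were -1.10, -1.16, -1.18, -1.57, -1.37 and -1.53, a mean of -1.32 ± 0.20 or 2.49-fold lower in DBA/2J. The 2 synthetases thus lay on opposite sides of 0 on every kidney array. Acsm genes are close in sequence, and the spots' oligonucleotide sequences were not used here, so which family member a spot measures is uncertain.

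Nudt19 (Entrez gene 110959, chromosome 7), known also as RP2, an androgen-regulated gene of mouse kidney, was lower in DBA/2J kidney. Its ratios of -1.50, -1.54, -1.32, -1.46, -1.64 and -1.44 averaged -1.48 ± 0.11, or 2.80-fold lower. The arrays lay close together, and replicate 3 was nearest to 0. Nudt7 (Entrez gene 67528, chromosome 8) gave 0.01, -0.20, -0.23, -0.32, -0.24 and -0.06 there, a mean of -0.17 ± 0.12. Its arrays stayed in a narrow band at or just under 0.

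The sign was the same on all 6 kidney arrays for 4 of the 6 genes, as it was for 33.0% of the 20218 features, and an absolute mean of 1 or more was reached by the same 4 genes and by 0.648% of features. The choice of genes used these ratios, so nothing is read from the counts. The size of a kidney ratio depended on the loess step. Centred on the median only, Acsm1 averaged 1.73, Acsm3 -0.56, Nudt19 -0.69 and Nudt7 -0.36, with the sign of each kept. In such bulk RNA, fewer cells of a type and less RNA per cell cannot be told apart. Of 10 proximal tubule markers, 2 were higher and 1 lower past the threshold in kidney, where 37.4% of all features passed. Their median ratio was 0.01 (0.80 without loess), and their part in the ratios of the 6 genes was not tested. On simulated data the kidney fit called more unchanged features than the brain and liver fits. That limits every kidney call given here and any comparison of kidney shares with those of the other organs.

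**Figure D2:**
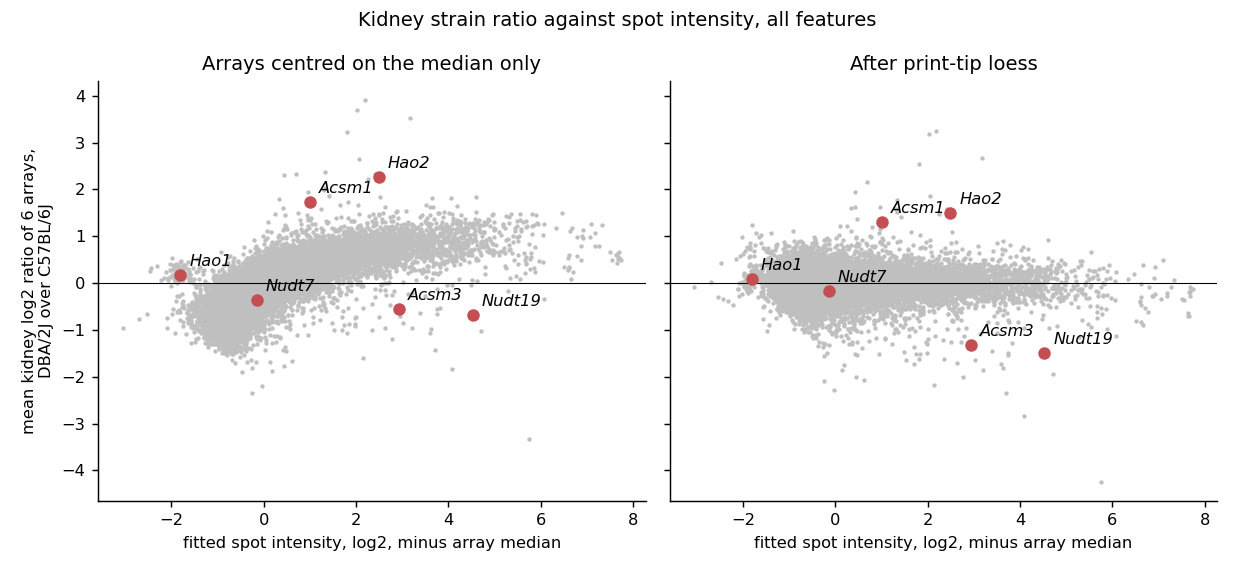
Mean kidney log2 ratio of 6 arrays against fitted spot intensity (log2, relative to the array median) for all 20218 features, with arrays centred on the median only (left) and after print-tip loess (right). The cloud bends upward with intensity on the left; Hao2 and Acsm1 lie above it and Acsm3 and Nudt19 below it in both panels, at 2.27, 1.73, -0.56 and -0.69 on the left.

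In liver the picture differed gene by gene. Nudt7 was higher in DBA/2J, and Acsm3 and Nudt19 were lower, so 3 of the 6 genes passed the threshold of an adjusted p of 0.05 (limma, Benjamini-Hochberg over all features) where 22.9% of all features did (10.8% higher and 12.1% lower). The sign was the same on all 6 liver arrays for these 3 and for Hao2, and for 24.7% of all features. The Nudt7 ratios on liver replicates 1 to 6 were 0.76, 0.95, 0.41, 0.55, 1.21 and 0.59, a mean of 0.75 ± 0.29 or 1.68-fold (adjusted p in limma = 0.000389). All arrays were clearly above 0, with replicate 5 the highest. This is the gene of the pair known from liver, and its spot was bright there.

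Acsm3 liver ratios were -0.62, -0.46, -0.44, -0.54, -0.05 and -0.53, a mean of -0.44 ± 0.20 (adjusted p in limma = 0.00270). Replicate 5 lay near 0 and apart from the other arrays, which were all below -0.43. Nudt19 gave -0.48, -0.11, -0.16, -0.44, -0.45 and -0.44, a mean of -0.34 ± 0.16 (adjusted p in limma = 0.00654). Replicates 2 and 3 were nearer to 0 than the rest, and all were below it.

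Hao2, so far above 0 in kidney, had liver ratios of -0.13, -0.08, -0.27, -0.15, -0.02 and -0.24, a mean of -0.15 ± 0.10. It did not pass the threshold in limma (adjusted p = 0.111), although all 6 arrays lay below 0, and the two-sided exact sign-flip permutation test of its 6 ratios gave p = 0.03125, the smallest that 6 arrays allow. The spot was nearly as bright in liver as in kidney. Acsm1 gave -0.03, 0.10, -0.38, -0.26, -0.56 and -0.33 in liver, a mean of -0.24 ± 0.24 (adjusted p in limma = 0.0602). Replicate 2 was the only array above 0, and without it the mean was -0.31 and passed (adjusted p in limma = 0.0197). It also passed with unrestored intensity (-0.26, adjusted p in limma = 0.0399) and with a single loess curve for each array (-0.32, adjusted p in limma = 0.0361).

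Hao1, an enzyme made chiefly by liver, had the widest spread of the 6 genes there. Its liver ratios were 2.10, 1.01, 0.11, 0.24, -0.68 and 0.03, a mean of 0.47 ± 0.97 (adjusted p in limma = 0.214). Replicates 1 and 2 were high, replicate 5 was low, and the others lay near 0. Leaving out 1 array at a time moved the mean from 0.14, without replicate 1, to 0.70, without replicate 5. As all arrays drew on the same pools, this spread is between hybridisations.

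In brain only Nudt19 passed the threshold, 1 of 6 genes against 13.5% of all features (7.33% higher and 6.16% lower). Its brain ratios were -0.74, -0.55, -1.13, -0.96, -1.14 and -0.41, a mean of -0.82 ± 0.30 or 1.76-fold lower in DBA/2J (adjusted p in limma = 0.000814). The arrays fell into a lower set, replicates 3, 4 and 5, and a set nearer 0, and did not reach 0. Nudt19 was thus the only gene of the 6 below 0 on every array of all 3 tissues.

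The other brain means were -0.13 ± 0.20 for Hao2, -0.15 ± 0.19 for Acsm1, -0.02 ± 0.20 for Acsm3, -0.08 ± 0.25 for Nudt7 and 0.20 ± 0.26 for Hao1. Each of these 5 genes had arrays on both sides of 0, and 18.1% of all features had a single sign on all 6 brain arrays. The Hao1 brain ratio depended on the normalisation: it was 0.60 with no loess and 0.85 with a single loess curve for each array, and passed the threshold under both (adjusted p in limma = 0.00492 and 0.000226). Its spot was among the dimmest in brain. Acsm1 in brain, also a dim spot, averaged -0.36 with no loess (adjusted p in limma = 0.0334).

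The difference between liver and brain, which uses no kidney ratio for its means, was tested in a fit of all 18 arrays. It passed the threshold for 3 of the 6 genes, where 7.56% of all features passed. Nudt7 was higher in liver than in brain by 0.83 ± 0.13 (SE, adjusted p in limma = 0.000140). Nudt19 differed by 0.48 ± 0.12 (SE, adjusted p in limma = 0.0124), since it was further below 0 in brain, and this call was lost when the loess used the intensity without its restored factor (0.40, adjusted p in limma = 0.241). Acsm3 differed by -0.42 ± 0.12 (SE, adjusted p in limma = 0.0249), and this call was lost without any 1 of brain replicates 1, 3 and 6 or liver replicates 1, 4 and 6, with values of -0.38 to -0.40. It was also lost with no loess (-0.26, adjusted p in limma = 0.383), with a single loess curve (-0.45, adjusted p in limma = 0.0512) and with unrestored intensity (-0.29, adjusted p in limma = 0.268). For Hao2 the difference was -0.02 ± 0.14, for Acsm1 -0.10 ± 0.13 and for Hao1 0.27 ± 0.30 (SE), and these did not pass. Kidney was compared with the other organs by its values alone.

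On kidney replicate 3, Hao2 lay farther from its other arrays than the other genes did from theirs. There Hao2 stood at 0.66, or 1.58-fold, while the other 5 arrays ran from 1.41 to 1.77 with a mean of 1.66, or 3.15-fold. Attention was drawn to this array by these values, so its distances and ranks are a description without a test. Hao2 lay 1.07 below the median of the other 5 (-1.07 on the log2 scale), and 51 of the 20218 features (0.252%) lay as far below or farther. With no loess the distance was -0.81, and with a single loess curve for each array -0.78.

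The other 5 genes lay closer to their other arrays. Acsm1 on replicate 3 was at 1.29 and differed from the median of the other arrays by -0.05. Acsm3 at -1.18 and Nudt19 at -1.32 were nearer to 0 than that median by 0.18 and 0.17. Hao1 and Nudt7 differed from it by -0.06 and -0.03. Of these 5, only Nudt19 was outside the range of the other arrays, which ended at -1.44. The distances of Acsm3 and Nudt19 were larger under other settings. They were 0.34 and 0.34 with no loess, and 0.55 and 0.24 with a single loess curve for each array.

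**Figure D3:**
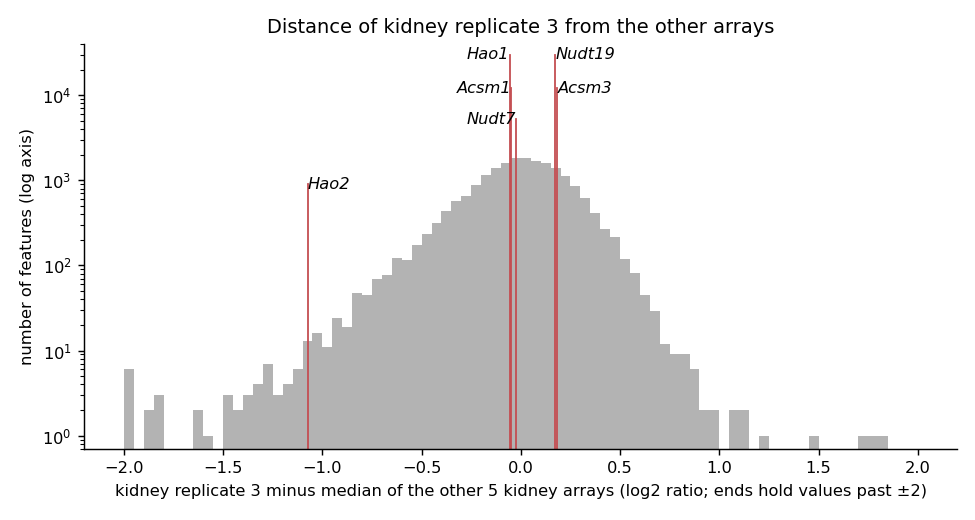
Log2 ratio on kidney replicate 3 minus the median of the other 5 kidney arrays for all 20218 features (histogram, log count axis), with a line for each of the 6 genes. Hao2, at -1.07, lies in the thin lower tail and the other 5 genes lie between -0.06 and 0.18, in the middle of the distribution.

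Replicate 3 was also low for many other features with high kidney ratios. The gap between Hao2 on replicate 3 and the lowest of the other 5 arrays was 0.76, and 83 features had a gap as large on that array, against 3 to 24 on the others. Of 47 features whose mean on the other 5 arrays was 1 or more, 28 (59.6%) were lowest on replicate 3, against 8.57% to 24.3% for the other arrays in the same role. On the other side, of 107 features whose mean on the other 5 arrays was -1 or less, 40 (37.4%) were highest on replicate 3. That share was not computed for the other arrays in the same role. By a gap as large as that of Hao2, 8 features were above the other arrays on replicate 3, against 2 to 29 on the others. Over all features 19.0% were lowest on replicate 3. Its mean correlation with the other kidney arrays, across features, was 0.547, the lowest of the 6. Arrays of a tissue share their pools, so this array and its partners are labelled as hybridisations of the same RNA.

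Genes known as sex-biased in mouse kidney were set beside Hao2. Of 12 measured genes known as higher in male kidney, 8 were lowest on replicate 3, and of 5 known as higher in female kidney 5 were highest on it. Over all features 19.0% were lowest and 18.7% highest. Features with wide ratios had larger shares: 59.6% of those averaging 1 or more on the other 5 arrays were lowest, and 37.4% of those at -1 or less were highest. The counts were not set against features of like ratio, so a trait of sex-biased genes is not read from them. Of 134 measured genes in all 11 related lists, the sex-biased genes included, 44 were lowest on replicate 3 and 19 highest. Cyp4a12a, a fatty acid hydroxylase, averaged 1.87 ± 0.73 and stood at 0.39 on replicate 3, with the other 5 arrays from 1.97 to 2.30. Cyp2a4, a steroid hydroxylase, was at 0.34 there against 1.72 to 2.05, and its close paralog Cyp2a5 at 0.03 against 1.50 to 2.07. The spots of that pair may not tell the 2 genes apart. These were wide cases: Cyp2e1 was lowest there only narrowly, at 0.72 against 0.77 to 1.14. The median distance of replicate 3 from the other arrays was -0.18 for the 12 genes known as higher in males and 0.24 for the 5 known as higher in females. Among the genes known as higher in females, Slc22a7, an organic anion transporter, stood at -0.34 on replicate 3 against -1.20 to -0.82 on the others. Cyp4a10, a fatty acid hydroxylase, was highest there only narrowly, at -0.83 against -1.21 to -0.84.

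The same 2 lists were described in kidney as a whole. Of the 12 genes known as higher in male kidney, 5 were higher in DBA/2J and 3 lower past the threshold (limma), 4 did not pass, and the median was -0.08 (0.72 without loess). The 5 higher genes included Cyp4a12a, Cyp2a4, Cyp2a5 and Cyp2e1 (0.89 ± 0.16), each with the same sign without loess. Of the 5 genes known as higher in female kidney, 4 were lower and 1 did not pass, with a median of -0.70 (-0.05 without loess). Of these, Cyp4a10 averaged -0.95 ± 0.16 but -0.04 without loess, and Slc22a7 averaged -0.83 ± 0.28 but turned to 0.07. Cyp4a14 averaged -0.70 ± 0.19 and Abcc3 -0.24 ± 0.24, and both stayed negative without loess, at -0.29 and -0.83. Over all features 37.4% passed, 18.8% higher and 18.6% lower. The labels give no sex, and the part of these genes' regulation in the Hao2 ratio was not tested.

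Over the 18 arrays Hao2 correlated with Acsm1 at 0.898, with Acsm3 at -0.865, with Nudt19 at -0.800, with Nudt7 at -0.463 and with Hao1 at -0.186 (Pearson's r, a description over arrays that share pools within a tissue). The values mainly follow the gap between kidney and the other organs. Of 15089 other named genes, 24 had a correlation above 0.9 with Hao2. The 8 most alike were Ttll8 (0.965), Prorsd1 (0.958), 1700029P11Rik (0.954), Hdc (0.933), Tm4sf5 (0.931), Cmtr1 (0.925), Agpat3 (0.923) and Mtor (0.921).

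These 8 genes were chosen by that likeness, so their values are a description. Ttll8, a tubulin glycylase, averaged 2.54 ± 0.41 in kidney with 1.80 on replicate 3. Hdc, the histidine decarboxylase that makes histamine, averaged 1.60 ± 0.84, with -0.11 on replicate 3 and 1.80 to 2.16 on the other 5 arrays. Agpat3, an acyltransferase of phospholipid synthesis, had 0.51 ± 0.18. In all 8 the value on replicate 3 was below the range of the other 5 kidney arrays, as for Hao2.

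The nearest genes with a spot on either side of Hao2, Acsm1, Acsm3 and Nudt19 had kidney ratios nearer to 0 than these genes. Next to Hao2, Hsd3b1, a steroid dehydrogenase, averaged -0.43 ± 0.15 in kidney (adjusted p in limma = 0.000392), although it was 0.22 without loess, and Wars2, a mitochondrial tRNA synthetase, 0.13 ± 0.18. Thumpd1, which lies between Acsm1 and Acsm3 and is the first measured gene on the facing side of each, averaged 0.42 ± 0.17 (adjusted p in limma = 0.000703), between the 1.30 of Acsm1 and the -1.32 of Acsm3. Beyond them, Pdilt had -0.13 ± 0.21 and Eri2 -0.09 ± 0.13.

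Next to Nudt19, Tdrd12, a germ-line gene, had -0.16 ± 0.15 in kidney, and Pdcd5 had -0.19 ± 0.28. In brain these neighbours went the other way from Nudt19, Tdrd12 at 0.65 ± 0.51 (adjusted p in limma = 0.0143) and Pdcd5 at 0.30 ± 0.21 (adjusted p in limma = 0.0338). Clec3a, next to Nudt7, was higher in liver (0.38 ± 0.23, adjusted p in limma = 0.00796) and Mon1b on the other side had -0.20 ± 0.27 there. In kidney Mon1b was lower in DBA/2J, at -0.38 ± 0.10 (adjusted p in limma = 0.000579), on the same side of 0 as Nudt7 and farther from it. The neighbours of Hao1, Bmp2 and Tmx4, averaged 0.09 ± 0.11 and -0.23 ± 0.28 in liver.

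**Figure D4:**
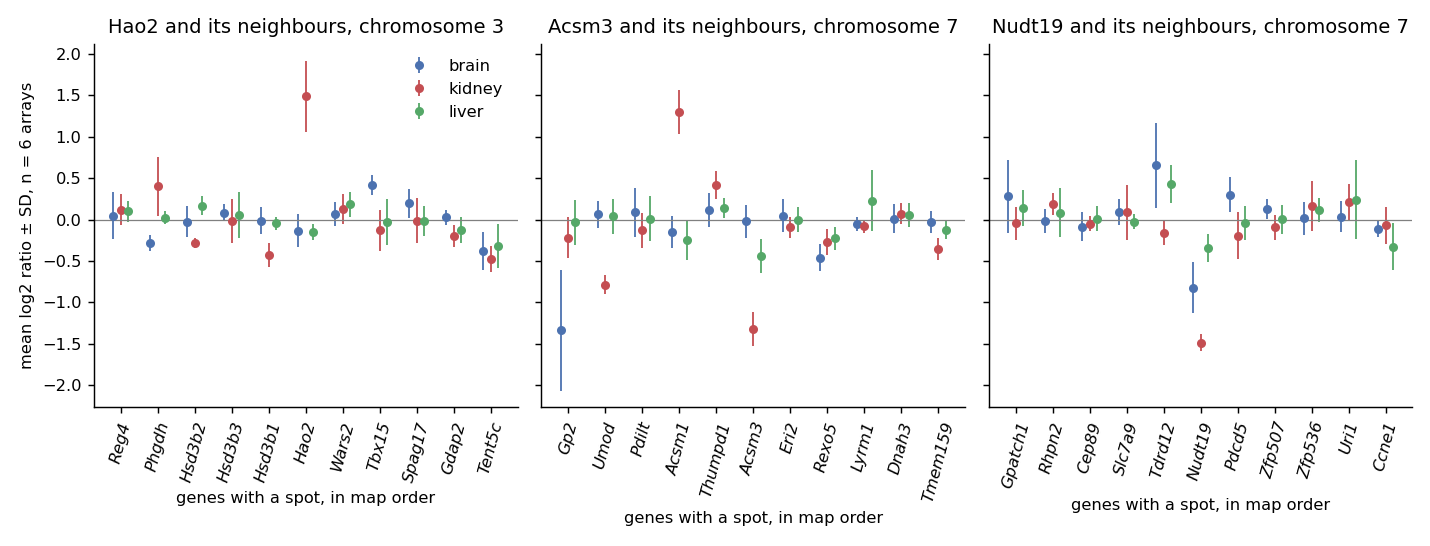
Mean log2 ratio ± SD of 6 arrays in brain, kidney and liver for Hao2, Acsm3 and Nudt19 and up to 5 genes with a spot on each side, in RefSeq map order. In kidney, Hao2 at 1.49 and Nudt19 at -1.48 stand away from every neighbour shown, and Acsm1 and Acsm3, with Thumpd1 between them, lie at 1.30 and -1.32.

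The wider pathways were described from 11 lists with 134 measured genes. In kidney 42 of them were higher and 27 lower in DBA/2J past the threshold (limma), or 51.5% against 37.4% of all features, with a median of 0.04 (0.44 without loess) against 0.00 over all features. Their spots were bright, with a median intensity percentile of 85.3 in kidney, and the part of intensity in that share was not tested. In liver 17 were higher and 27 lower (32.8% against 22.9%), and in brain 9 and 13 (16.4% against 13.5%).

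The list of other peroxisomal oxidases and enzymes that remove hydrogen peroxide also held Xdh and Sod1, which are outside that class. Its genes stayed nearer to 0 in kidney than Hao2. Of 10 measured, 4 were higher and 3 lower in kidney, where 37.4% of all features passed. Acox2, the bile acid and branched-chain oxidase, averaged -0.74 ± 0.19, and -0.31 without loess. Xdh, xanthine dehydrogenase, averaged 0.50 ± 0.17, and Ddo, aspartate oxidase, 0.56 ± 0.09, though Ddo was -0.10 without loess. Sod1, superoxide dismutase, had -0.50 ± 0.16 and turned to 0.50 without loess. In liver Uox, urate oxidase, rose by 0.63 ± 0.12 (adjusted p in limma = 8.47e-05), while Xdh was lower at -0.31 ± 0.12.

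Of 13 measured synthetases outside the Acsm family, 5 were higher and 3 lower in kidney, with a median of 0.06, and none reached the size of the Acsm1 or Acsm3 ratio. Bphl, a hydrolase listed with them, had 0.51 ± 0.19 and Aacs, acetoacetyl-CoA synthetase, 0.46 ± 0.17, both positive without loess as well. Acsl3 at 0.42 ± 0.15 and Acss1 at -0.30 ± 0.11 changed sign without loess, to -0.23 and 0.22. In liver 2 were lower, among them Slc27a2, the very long-chain synthetase and fatty acid carrier, at -0.71 ± 0.31, which was -0.08 without loess. Of 4 measured genes listed under glycine conjugation, 1 was higher and 1 lower in kidney, and 1 was higher and 2 lower in liver. The kidney calls were Baat (0.19 ± 0.10), which acts on bile acids, and Acnat2 (-0.23 ± 0.11, but 0.13 without loess). Neither is the enzyme of the glycine step after Acsm, and Baat was also among the lower genes in liver (-0.73 ± 0.10). Over all features 37.4% passed in kidney and 22.9% in liver.

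Of 26 measured genes of CoA synthesis and breakdown and related Nudix hydrolases, 9 were higher and 4 lower in kidney, with a median of 0.05. There 37.4% of all features passed. Of these 26 genes, 15 were other Nudix hydrolases, of which 7 were higher, 1, Nudt4, was lower (-0.40 ± 0.16, but 0.40 without loess) and 7 did not pass, with a median of 0.12 (0.39 without loess). Nudt9, an ADP-ribose hydrolase, averaged 0.59 ± 0.20, Nudt12, an NADH hydrolase of the peroxisome, 0.56 ± 0.26, and Nudt16, a decapping enzyme of small nucleolar RNA, 0.42 ± 0.08, each positive without loess. Nudt11 averaged 0.58 ± 0.37 and -0.12 without loess. In liver, where Nudt7 was higher, Nudt2, which splits diadenosine tetraphosphate, was higher by 0.53 ± 0.25 (adjusted p in limma = 0.00178) and Pank4, of the pantothenate kinase family, lower at -0.37 ± 0.19.

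The remaining lists are given by counts in kidney, where 37.4% of all features passed. Of 8 acyl-CoA thioesterases, 2 were higher and 0 lower. Of 8 genes of glyoxylate and oxalate metabolism, the pathway of Hao1, 1 was higher and 1 lower. Of 19 genes listed under peroxisomal membrane and import, 8 were higher and 2 lower. The higher ones included Mpv17, a protein of the mitochondrial inner membrane, at 0.82 ± 0.30 (0.11 without loess) on a spot at percentile 4.05. Of 13 genes of peroxisomal beta oxidation, 1 was higher and 3 lower. Of 17 genes listed under mitochondrial medium-chain fatty acid oxidation, 6 were higher and 3 lower. The higher ones included Slc25a20 (0.49 ± 0.27) and Cpt2 (0.39 ± 0.22), of the carnitine import of long-chain groups, which is not a step after Acsm. The medians of these 5 lists lay from -0.03 to 0.09, and from 0.33 to 0.55 without loess.

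**Figure D5:**
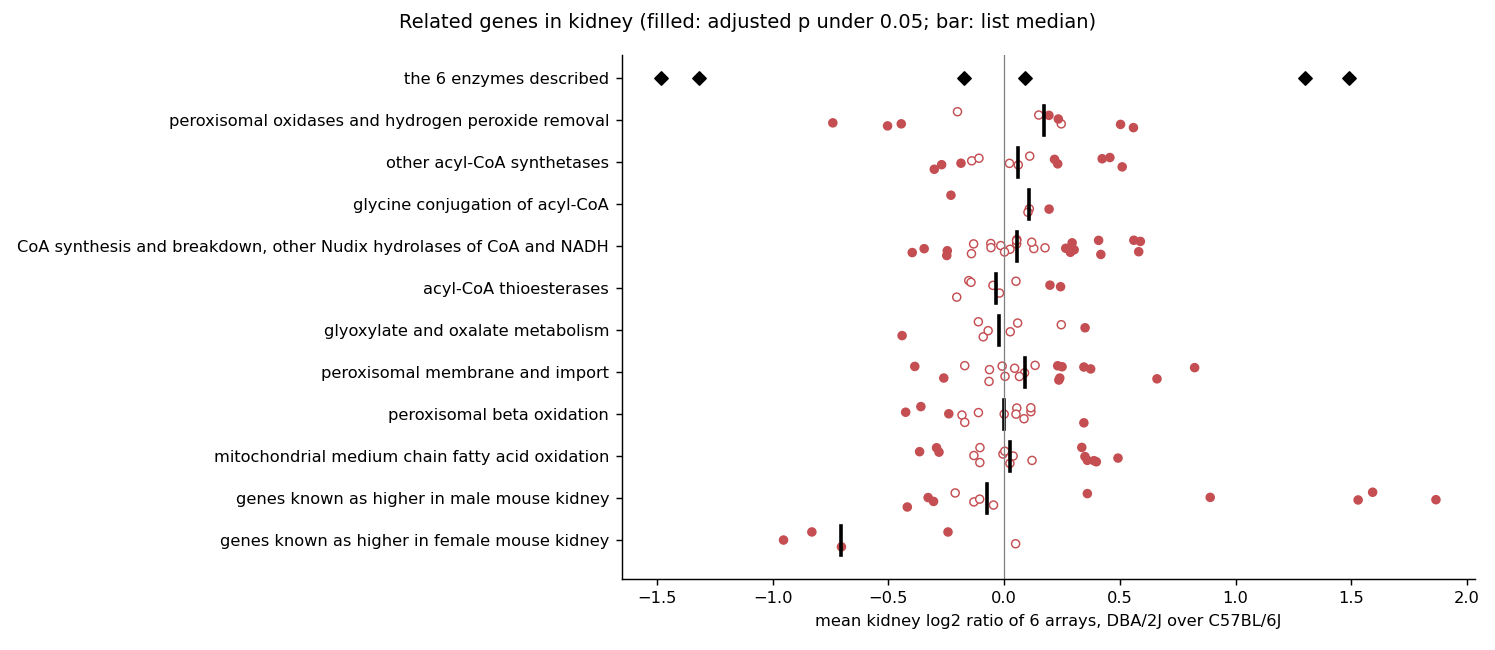
Mean kidney log2 ratio of 6 arrays for the 6 enzymes (diamonds) and for the measured genes of 11 related lists (circles, filled where the adjusted p in limma is under 0.05; vertical bars are list medians). The outermost diamonds lie at -1.48 and 1.49, and outside the list of genes known as higher in male kidney no circle goes beyond -1 or 1.

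Markers of other cell types that a dissected organ could hold were compared in kidney. Of 4 skeletal muscle markers 2 were lower, of 4 adrenal cortex markers 2 were lower, of 3 adipocyte markers 2 were higher, of 5 blood and immune markers 1 was lower and of 4 pancreatic acinar markers 3 were higher in DBA/2J. Over all features 37.4% passed in kidney. The medians of these lists were -0.20, -0.24, 0.20, -0.11 and 0.24, and without loess -0.13, -0.33, 0.46, -0.34 and 0.07. Of 9 markers of other nephron segments, 1 was higher and 4 lower, with a median of -0.16 that turned to 0.28 without loess. In liver, where 22.9% of all features passed, 3 of 4 skeletal muscle markers were higher, with a median of 0.48 (0.60 without loess), beside the liver ratios of Nudt7, Acsm3 and Nudt19. The part of these cells in the ratios was not tested.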

How the data were processed

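Members and gene lists were chosen with earlier results of these data known. The deposited values are log2 ratios of 23040 spots, per the labels quantified with Spot and normalised by print-tip lowess in limma. They nevertheless behaved as ratios of raw intensities: 100.0% equalled log2 of a ratio of 2 whole numbers up to 65535 (tolerance 1e-12). The sources used here do not give software versions or the background correction, and the number of arrays limits the precision.

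Here 1275 spots at 0 on every array were left out. The factor common to both channels was estimated from all arrays of the tissue (SD 0.4). Ratios were normalised by print-tip loess (limma 3.58.1, R 4.3.3, span 0.3, 4 iterations, 48 blocks of 480 spots in ID order, a layout that was assumed). The loess ran against a fitted intensity, namely a spot level shared by all arrays of a tissue plus a level for each array. Spots were named from the platform annotation and RefSeq GRCm38.p6 (15964 matched by Entrez identifier; 16642 with 1 symbol, 134 with several, 4989 with none), and averaged into 20218 features, of which dim and bright ones were kept. Each tissue's mean was tested against 0 with lmFit and eBayes, and liver minus brain in a fit of 18 arrays, with Benjamini-Hochberg adjustment over all features. On simulated data the kidney fit called more unchanged features than the brain and liver fits.

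Named genes were all members, up to 4 genes past the threshold by kidney ratio and 2 by liver ratio of 5 of the 11 related lists, the 8 genes most like Hao2 and the nearest measured genes on either side. The other lists, and brain, were given by counts, with genes named only where they fall outside the step or place of their list. Alternatives concerned normalisation, dim and bright spots, variance model, single spots, left-out arrays and the replicate number.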

Additional observations from a re-analysis of the deposited data

Results flagged for a closer look

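In each tissue's 6 arrays, 52 groups of values were searched for a single array far from the others, namely the 6 genes in 3 tissues, the related genes named in the text and the 8 genes most like Hao2. Such an array was found in 9 groups, and 7 of the 9 were kidney replicate 3. Chance gives about 1 in 20 groups, but 34 of the 52 groups were kidney, Hao2 on replicate 3 was singled out with its value known and 8 genes were chosen for their likeness to it, so the count is not read against chance. Among the enzymes these were Hao2 on kidney replicate 3 (0.66, other arrays 1.41 to 1.77), Hao1 on kidney replicate 1 (1.02, other arrays -0.31 to 0.05) and Acsm3 on liver replicate 5 (-0.052, other arrays -0.62 to -0.44). On kidney replicate 3 the other 6 were Cyp4a12a at 0.39, Cyp2a4 at 0.34, Cyp2a5 at 0.032, Prorsd1 at 0.40, Hdc at -0.11 and Tm4sf5 at -0.080, each below its other 5 arrays. The last 3 were among the genes chosen for their likeness to Hao2 over these arrays.

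The strain ratio differed between liver and brain for 3 genes in limma's contrast over 18 arrays, by 0.83 for Nudt7 (adjusted p = 0.000140), 0.48 for Nudt19 (adjusted p = 0.0124) and -0.42 for Acsm3 (adjusted p = 0.0249). Nudt7 was above 0 on 6 of 6 liver arrays and on 3 of 6 brain arrays, Nudt19 below 0 on all arrays of both, and Acsm3 below 0 on 6 of 6 liver arrays and on 3 of 6 brain arrays.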

How the results depend on the processing

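The liver calls of Nudt7, Acsm3 and Nudt19 and the brain call of Nudt19 held with no loess, a single curve, unrestored intensity, another variance model, each spot alone, without the dimmest 25% or the brightest 1% of features, and without any 1 array of the tissue. As deposited, where whole arrays lie below 0, Nudt7 in liver reversed to -0.40 and Hao1 to -0.60. The cause of the changes below was not tested. Members past the threshold in brain, 1 in the main setting, were 3 with no loess, 2 with unrestored intensity, 2 with a single curve and 5 as deposited. In liver 3 became 6 as deposited and 4 with unrestored intensity or a single curve. The exact sign-flip permutation test, at p under 0.05 without adjustment, also gave 4 in liver. These were the genes with the same sign on all 6 arrays, as 24.7% of all features had, so that count is not on the same footing. The liver minus brain difference held for 3 members, 1 with unrestored intensity and 0 as deposited (limma; 1 member at an unadjusted p under 0.05). Leaving out 1 array gave 1 member in brain, 3 to 4 in liver and 2 to 3 for the difference. Related genes past the threshold were 22 in brain, 69 in kidney and 44 in liver, against 130, 45 and 133 as deposited (kidney also 100 with no loess, 53 with unrestored intensity and 48 with a single curve), and 12 to 20, 58 to 67 and 28 to 39 without 1 array. Kidney replicate 3 of Hao2 lay -1.07 from the other arrays, -0.81 with no loess and -0.78 with a single curve. The replicate number did not pair the arrays, since 2 of 18 same-numbered pairs correlated above 0.1; with a replicate block 3 members again had a liver minus brain difference.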

Other observations

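Near the Acsm genes on chromosome 7, 2 genes stood out after their values were seen. Gp2, a membrane glycoprotein of pancreas and gut, averaged -1.34 ± 0.73 in brain (SD, n = 6 arrays, adjusted p in limma = 0.00207), -0.22 ± 0.25 in kidney and -0.03 ± 0.27 in liver. Umod, the uromodulin of the thick ascending limb, averaged -0.78 ± 0.11 in kidney (adjusted p in limma = 1.88e-06), but 0.11 without loess.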
